A study of Mus musculus with 6 samples.

Results

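The genes described here encode the proteins of the cytosolic ribosome. They were chosen by symbol: the Rpl and Rps genes with a plain number, together with Rpsa, Rplp0, Rplp1, Rplp2 and Fau, kept only where the annotation calls them protein-coding, plus Gm28037, a non-coding RNA that overlaps Rpl24. The rule found 85 of the 52550 gene identifiers in the deposited gene table: 46 large subunit genes, 32 small subunit genes, 6 paralogs and Gm28037. The 78 subunit genes are called the core genes below.

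RNA was sequenced from primary keratinocytes, the epithelial cells of the epidermis, isolated from wild type C57BL/6 mice at postnatal day 0 to 2. The cells were kept in culture for 2 days and then either left untreated (3 libraries) or exposed for 12 h to recombinant IL-33, an alarmin that belongs to the IL-1 cytokines (3 libraries). Both groups shared strain, genotype, tissue and age. The sources used here do not give the IL-33 dose. They also do not say that replicates were separate animals or cultures, so each p-value rests on a spread between libraries that could be technical.

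Each ribosome is built from a small subunit, which reads the message, and a large subunit, which joins amino acids, and every subunit protein is normally made in step with the others. Many of their messages begin with a run of pyrimidines, the 5′ terminal oligopyrimidine (TOP) tract, through which mTOR signalling adjusts their translation. In skin, mutations of Rps19 and Rps20 in mice are known to darken the epidermis through p53 in keratinocytes, and the Rpl24 mutation Belly spot and tail reduces coat pigment.

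Libraries held 34188173 to 45266298 deposited estimated counts, with IL-33 replicate 2 the shallowest. Levels are given as CPM, the deposited count scaled to library size with TMM factors. The 7 basal keratinocyte markers summed to between 35248 and 36230 CPM of the library total in untreated cells and between 35262 and 37832 CPM with IL-33. The 7 markers of suprabasal keratinocytes summed to between 27.6 and 32.4 CPM over the 6 libraries, those of melanocytes to between 1135 and 1241 CPM, and those of fibroblasts to between 31.4 and 42.7 CPM. Immune and endothelial markers summed to between 14.3 and 24.9 CPM, and Cd3e, Cd207 and Emcn were listed at 0 in all libraries. In such bulk libraries, fewer cells of a type and less RNA per cell cannot be told apart.

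Rpl24, a large subunit protein that forms a bridge to the small subunit, and Gm28037 share most of their sequence, which is why their spliced sequences are shown first. In the GENCODE M21 annotation of GRCm38, Rpl24 spans chromosome 16 from 55966275 to 55971435 on the plus strand. Its 677-base transcript has 6 exons. Gm28037, a processed transcript of 611 bases, starts 68 bases further on, has 4 internal exons identical to those of Rpl24, and shares 484 identical bases with it. It skips the last exon of Rpl24 (55971311 to 55971435) and joins an exon of 127 bases at 55980595 to 55980721, which starts where an exon of the neighbouring gene Zbtb11 starts. The lines below give 30 shared bases in lower case and the first 30 bases of the last exon in capitals, where the RNAs part, from the GENCODE transcripts.
Rpl24: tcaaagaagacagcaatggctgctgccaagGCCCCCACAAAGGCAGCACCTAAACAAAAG
Gm28037: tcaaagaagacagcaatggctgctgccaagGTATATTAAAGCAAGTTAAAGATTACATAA
Reads that do not reach these last exons or the first bases of Rpl24 carry the same letters for both RNAs.

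The TOP tract can be seen in the RefSeq sequence around some transcript starts (GRCm38.p6). A run was defined as a C followed by at least 4 bases of C or T on the gene's strand, beginning within 5 bases of the annotated start. Of the 58 core genes with an entry, 26 (44.8%) had such a run, against 18.5% of all 27025 windows. Each window below holds 20 bases before the start and 10 from it, with the run in capitals, for Fau, Rplp2, Rps15a and Rps2. Rpl24 is shown beside them because the result on IL-33 turns on it, and its window holds no such run.
Fau: ggacgtgcgcgcccccaCTTCTTCCTCTTT
Rplp2: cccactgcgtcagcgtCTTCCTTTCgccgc
Rps15a: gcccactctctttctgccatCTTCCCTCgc
Rps2: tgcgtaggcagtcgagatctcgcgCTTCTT
Rpl24: taggaagaaagctgttgctaggaaacagac
A run is a match of letters near an annotated start and not a measured start.

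The core genes took up a steady part of every library. All 85 members held 6.10%, 6.35% and 6.03% of deposited counts in untreated replicates 1 to 3, and 6.10%, 6.18% and 6.13% with IL-33. The groups overlapped, with means of 6.16% ± 0.170 untreated and 6.14% ± 0.0387 with IL-33 (SD, n = 3). Untreated replicate 2 was the highest library. It held the highest CPM of the 3 untreated libraries for 57 of the 78 core genes, while the same library was highest for 32.7% of 1296 other genes at or above the level of the lowest core gene. Over the core genes, the median deviation of that library from each gene's mean was 0.05 on the log2 scale, and the other 5 libraries lay between -0.02 and 0.01.

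By median coefficient of variation, the core genes varied more than the 1296 other genes among untreated libraries and less among IL-33 libraries. Their median ratio of the highest to the lowest CPM over the 6 libraries was 1.1, against 1.12 for the 1296 other genes. The median coefficient of variation was 4.14% among untreated libraries and 2.02% among IL-33 libraries, against 3.13% and 3.87% for the 1296 other genes. Of the 78 core genes, 46 stayed under 5% in both groups. Counts of small over large subunit genes stood at 0.683, 0.677 and 0.688 in the untreated libraries and at 0.695, 0.699 and 0.693 with IL-33. These ratios did not overlap between groups. They include the rows of Rpl24, Rpl13a, Rps16 and Rps25 described below, and how much any row contributes was not tested.

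Levels can be compared between genes only per length. The gene table's FPKM is fragments per kilobase of exon, scaled to depth. For 76 of the 85 members it followed counts divided by the union of all GENCODE M21 exons to within 10%. The FPKM of each gene's transcripts was therefore summed instead. The sum was a median of 2.01 times the gene FPKM among core genes. By this scale the untreated core genes ran from 97.9 to 2186 FPKM, a 22.3-fold range. The middle of the distribution was narrower, since the upper quartile, 1093 FPKM, was 2.14 times the lower quartile, 511 FPKM. The medians of the small and large subunits were 731 and 651 FPKM.

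The highest levels belonged to genes of the stalk, the flexible arm of the large subunit that recruits translation factors. Rplp1, one of its acidic proteins, had 2186 ± 198 FPKM in untreated cells and Rplp0, its base, 2156 ± 79.5 (SD, n = 3), which did not differ beyond their spread. Rplp2, the other acidic stalk protein, stood far lower at 438 ± 22.9 FPKM, rank 66 of the 78. Rps2, at the entry of the messenger channel, followed with 1957 ± 68.7 FPKM. By this scale Rpl22, an RNA-binding large subunit protein, was lowest at 97.9 ± 4.43 FPKM, followed by Rps15a at 108 ± 7.57 and Rps20 at 136 ± 6.01. The annotated exons of Rps15a and Rps20 cover 6270 and 4080 bases, and a single transcript held 98.0% and 98.5% of their counts. How far the length of the transcript given the counts sets these low ranks was not tested. The untreated libraries of Rpl22 lay between 92.9 and 101 FPKM and those of Rps15a between 102 and 116 FPKM, so they did not overlap, though the nearest values were almost equal. The summed FPKM depends on which transcript received the counts. For Rpl22 that differed between libraries, as described below, so the order of these genes is not settled by this scale. By gene-table FPKM, the 5 highest were Rplp1, Rplp0, Rpl8, Rps2 and Rps3a1. The 5 lowest tested members by that scale were Rpl22l1, Rpl22, Rps19, Rps15a and Rps24, while by untreated summed transcript FPKM Rps19 and Rps24, at 518 and 509, ranked 58 and 59 of the 78 core genes.

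**Figure D1:**
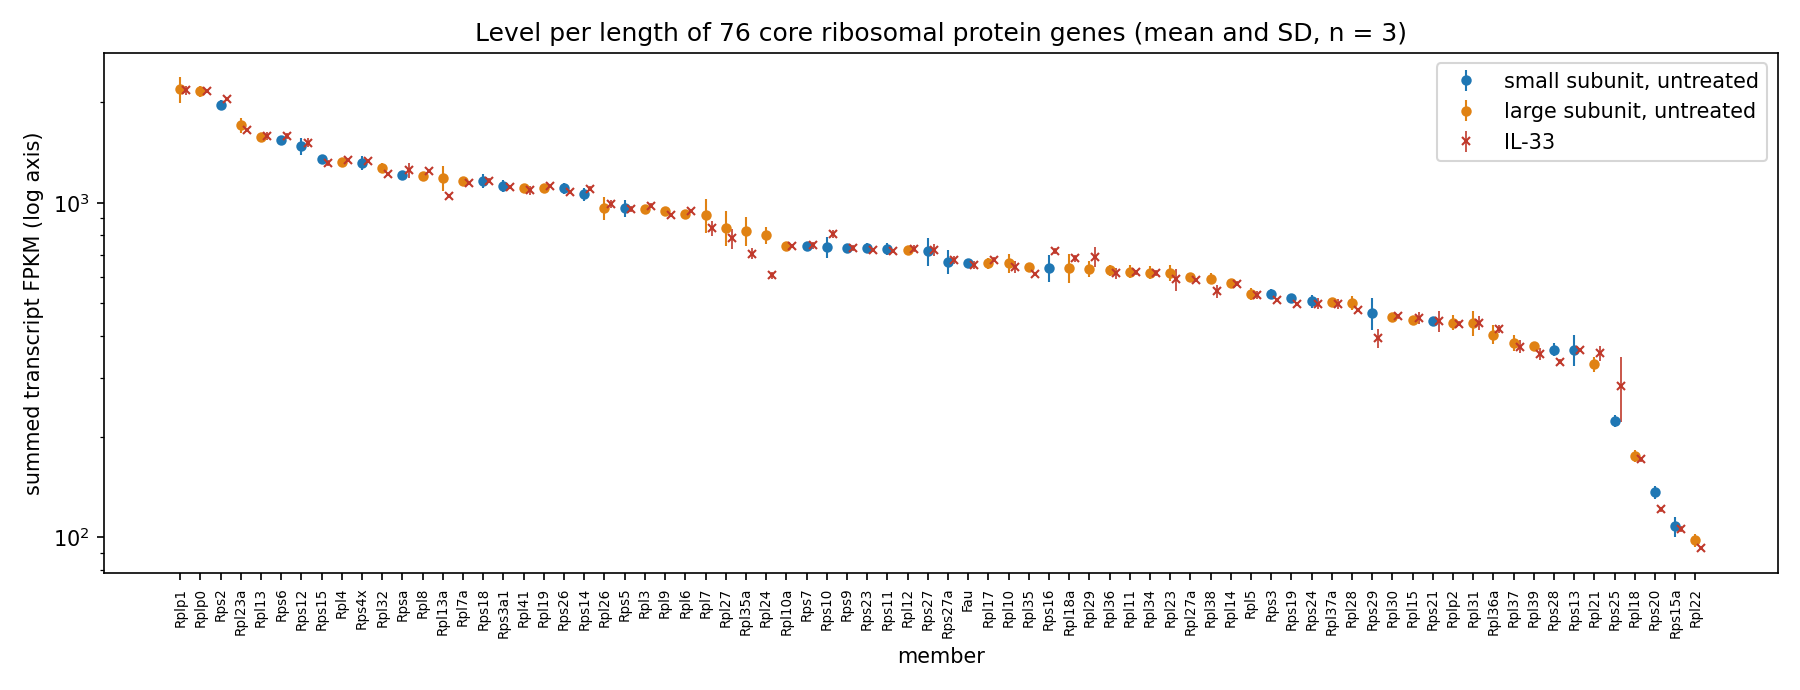
Summed transcript FPKM (log axis) of 76 core genes, ordered by the untreated mean, with points for group means and bars for the SD of 3 libraries. Blue and orange mark the untreated means of small and large subunit genes and red crosses the IL-33 means; the order runs from Rplp1 at 2186 to Rpl22 at 97.9 FPKM, and most crosses sit beside the untreated points.

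With IL-33, 1 of the 82 tested members passed the threshold of 0.05 on the adjusted p, Rpl24, which fell. Among all 15778 genes tested, 0.0254% were called lower and 0.0444% higher, 11 genes in all, by edgeR's quasi-likelihood test with Benjamini-Hochberg adjustment. The members' median log2 fold change was -0.01, against 0.00 for all genes, with 34 members above 0 and 48 below. The median was -0.01 in the small subunit and -0.01 in the large subunit. The 3 members that were not tested were paralogs with few or no counts.

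The precision was high for most core genes. The 95% interval of the fold change lay within 1.2-fold in either direction for 68 of 78 core genes, and within 1.1-fold for 40. At an unadjusted p under 0.05 there were 12 of 82 members (14.6%), 10 lower and 2 higher, against 6.74% of all genes. Among the core genes alone there were 9 of 78 (11.5%), 8 lower and 1 higher. The 1296 other genes at or above the level of the lowest core gene gave 12.4%. The groups did not overlap for 18 members (22.0%), 13 lower and 5 higher, and for 15 core genes (19.2%), 11 lower and 4 higher. The share without overlap was 13.7% over all genes and 18.9% over the 1296.

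**Figure D2:**
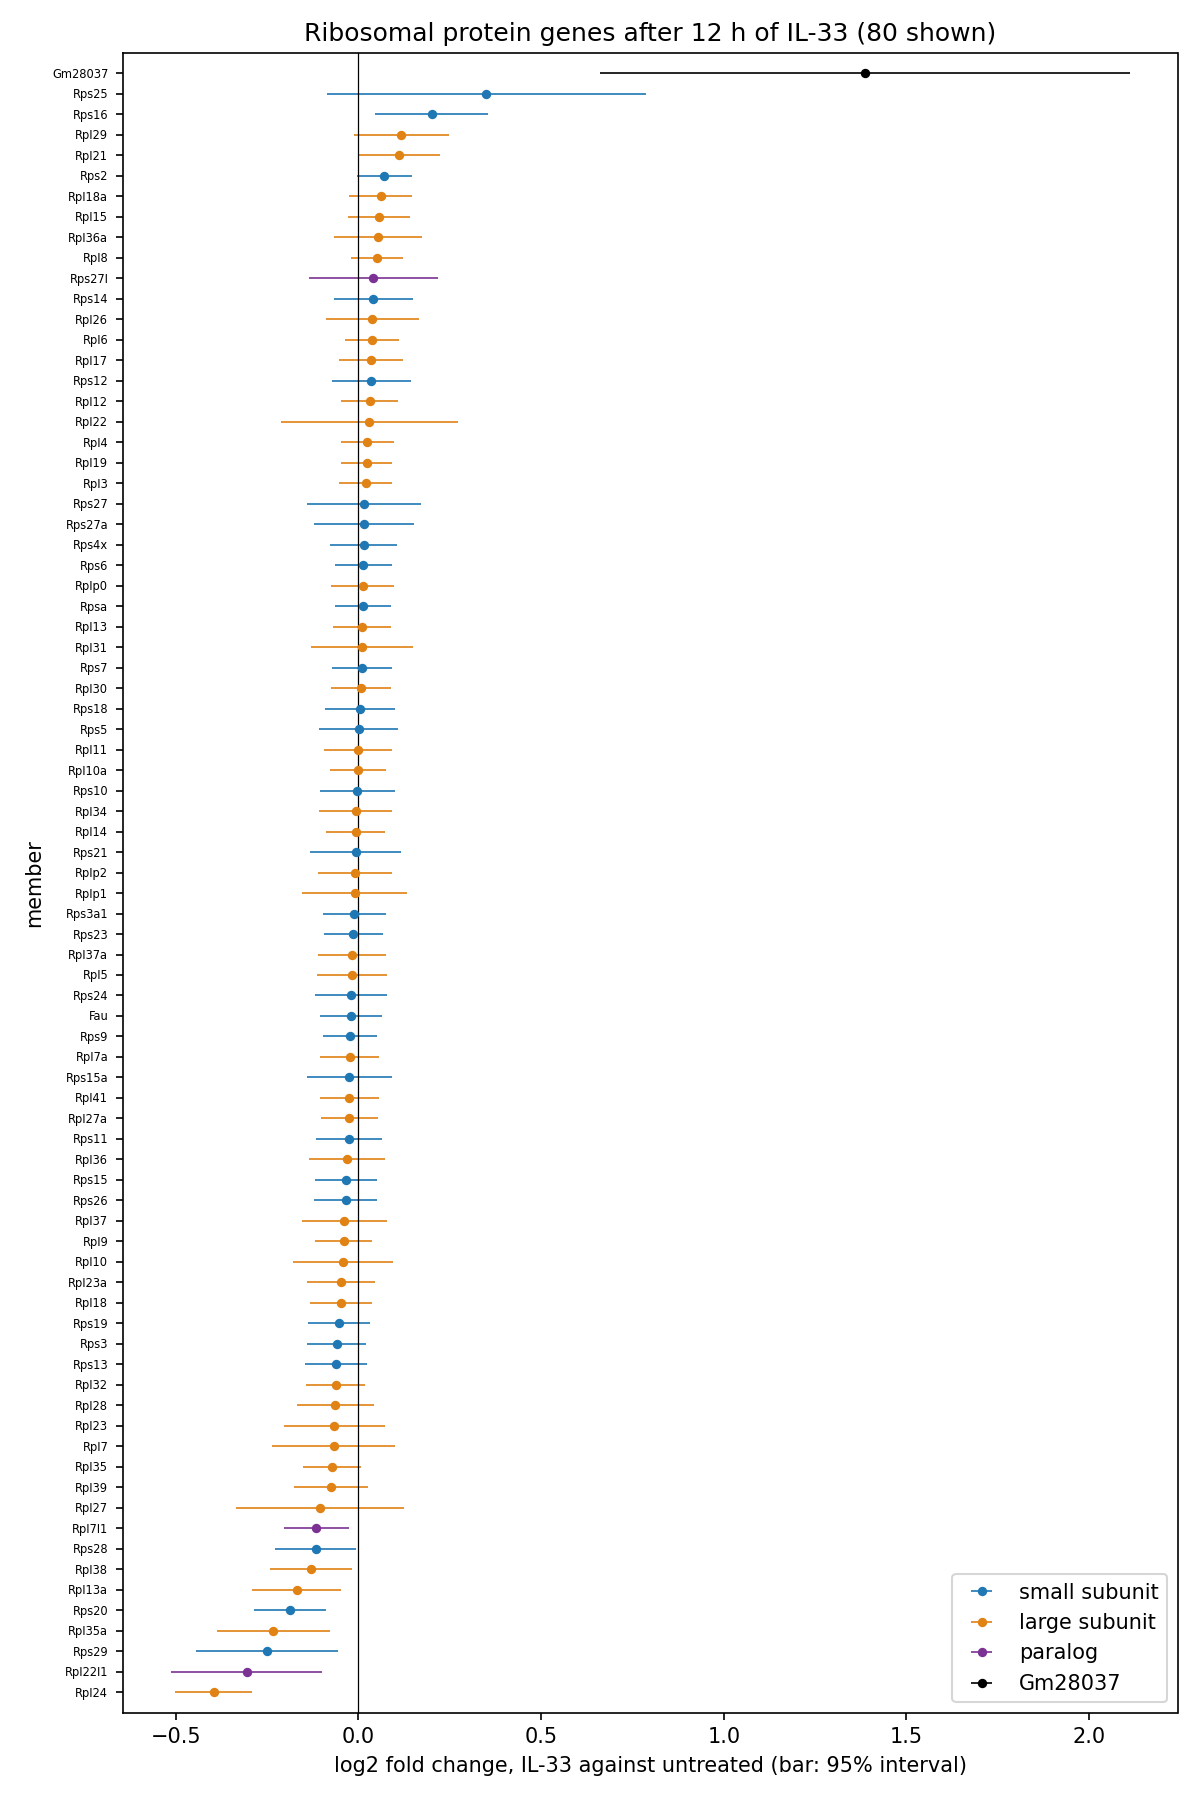
Log2 fold change of 80 tested members, IL-33 against untreated, as points with 95% intervals from the fit on all genes, coloured by subunit. Most points lie within 0.1 of 0, with Rpl24 lowest at -0.40 and Gm28037 highest at 1.39.

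Rpl24 had 585, 631 and 563 CPM in the untreated libraries and 464, 441 and 447 CPM with IL-33. Every IL-33 library was below every untreated library. The means were 593 ± 34.7 and 451 ± 12.0 CPM (SD, n = 3), a log2 fold change of -0.40 (SE 0.0475, 95% interval -0.50 to -0.29, adjusted p = 0.0207, edgeR quasi-likelihood test). The adjusted p rose to 0.0971 without IL-33 replicate 2, 0.0762 without untreated replicate 1, and 0.11 with limma on log2(FPKM + 1), 0.108 on log2(FPKM + 0.1) and 0.309 on log2(FPKM + 1) with no filter on low values. Without untreated replicate 2, the library in which most core genes were highest, the log2 fold change was -0.35 and the adjusted p 0.0399. Over all 18 alternatives the log2 fold change stayed between -0.43 and -0.35.

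Gm28037 moved the other way. It had 66.7, 37.8 and 45.6 CPM in untreated libraries and 103, 152 and 137 CPM with IL-33. All IL-33 libraries were above all untreated ones, but the spread was wide. The log2 fold change of 1.39 (SE 0.277, 95% interval 0.66 to 2.11) had an adjusted p of 0.575 by edgeR and of 0.00188 by DESeq2, which called 0.463% of the genes it adjusted. DESeq2 called Rpl24 and Gm28037, and no other member.

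Since the RNAs share sequence, their rows were also added together. Of the counts in both rows, Gm28037 held 10.2%, 5.65% and 7.49% in untreated libraries and 18.2%, 25.6% and 23.5% with IL-33. The sum was 652, 669 and 609 CPM in untreated libraries and 567, 592 and 585 CPM with IL-33, still without overlap. Its log2 fold change was -0.15 (SE 0.0431, 95% interval -0.24 to -0.05) with an unadjusted p of 0.00732 and an adjusted p of 0.625 (edgeR quasi-likelihood test), so the sum did not pass. How far the assignment of shared reads contributes to the fall of Rpl24 was not tested. Zbtb11, a zinc finger gene whose exon Gm28037 joins, had 58.1 ± 3.25 CPM in untreated and 56.5 ± 2.72 CPM in IL-33 libraries (SD, n = 3).

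**Figure D3:**
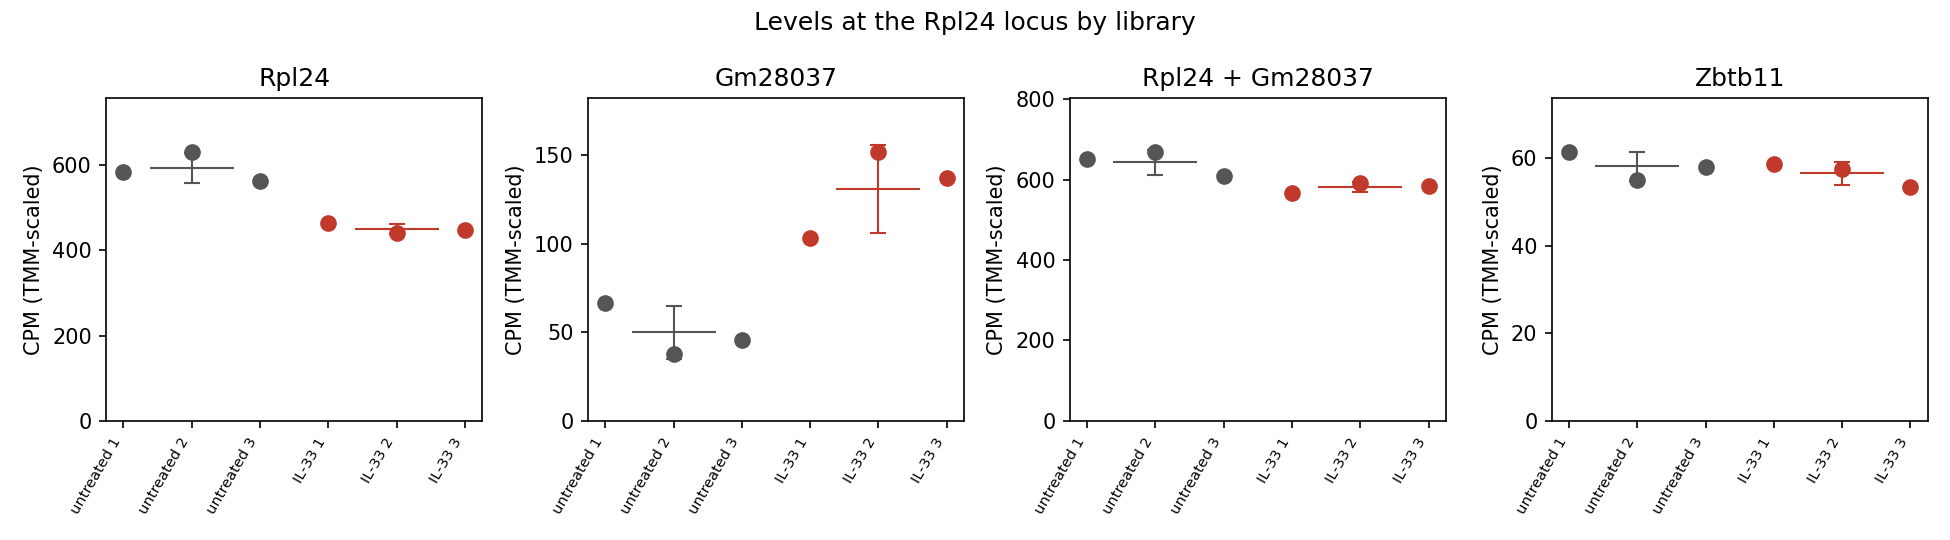
CPM of Rpl24, Gm28037, their sum and Zbtb11 in each of the 6 libraries (grey untreated, red IL-33), with bars at the group mean and SD of 3 libraries; each axis starts at 0. Rpl24 is lower and Gm28037 higher in all 3 IL-33 libraries, while their sum runs from 567 to 669 CPM.

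In the transcript table most Rpl24 counts lay in its main coding transcript, which had 548, 581 and 516 CPM untreated and 442, 405 and 420 CPM with IL-33. Its log2 fold change was -0.38 (SE 0.0562), and its adjusted p of 0.336 by edgeR was the lowest of the 411 member transcripts tested. No member transcript passed, where 0.0299% of the 40163 tested transcripts did. At an unadjusted p under 0.05 there were 15 member transcripts (3.65%), 13 lower and 2 higher, against 4.24% of all transcripts. The largest copy of Rpl24 elsewhere in the genome, the processed pseudogene Gm9385, had 28.8, 27.3 and 31.1 CPM in untreated libraries and 21.9, 26.2 and 26.1 CPM with IL-33. The groups did not overlap, with a log2 fold change of -0.23 (unadjusted p = 0.0427, adjusted p = 0.74, edgeR). The median over the 294 tested copies of all members was -0.31. The next copy of Rpl24 by counts, Gm12254, had 7.37, 7.27 and 7.75 CPM in untreated libraries and 8.12, 7.05 and 8.09 CPM with IL-33. These overlapped, with a log2 fold change of 0.06 (SE 0.134). All copies together made up 6.19% of the counts of Rpl24 and its copies.

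Rps25, a protein of the subunit's head, had 268, 274 and 277 CPM untreated and 263, 388 and 394 CPM with IL-33. IL-33 replicate 1 lay with the untreated libraries and the other IL-33 libraries stood above all of them. The log2 fold change was 0.35 (SE 0.169, adjusted p = 0.765, edgeR), and without IL-33 replicate 1 it was 0.51 with an adjusted p of 0.00401. That fit leaves out the library seen to differ from its group, and it was the only 1 of 18 alternatives to pass. Rps25 shares exonic bases with Trappc4 and Ccdc84 on the opposite strand, which had 50.6 ± 4.64 and 4.14 ± 0.339 CPM in untreated libraries and 46.6 ± 6.40 and 4.45 ± 0.957 CPM in IL-33 libraries (SD, n = 3).

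Rps16, which reaches towards the decoding centre, had 657, 711 and 803 CPM untreated and 814, 850 and 830 CPM with IL-33. The groups did not overlap, but untreated replicate 3 lay just under the IL-33 libraries, and the log2 fold change of 0.20 (SE 0.0673) had an adjusted p of 0.717 (edgeR).

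Rps20, another protein of the small subunit head, had 540, 493 and 535 CPM untreated and 447, 464 and 465 CPM with IL-33. All IL-33 libraries were lower, and its log2 fold change of -0.19 (SE 0.0440) had the second smallest unadjusted p among members, 0.00177, with an adjusted p of 0.410 (edgeR). Rps29, a small zinc-binding protein, had 205, 225 and 179 CPM untreated and 169, 160 and 183 CPM with IL-33, which overlapped. Its log2 fold change was -0.25 (SE 0.0846, adjusted p = 0.718, edgeR). Rps19, Rps15a, Rps24, Rps2, Rps3a1 and the laminin receptor gene Rpsa had log2 fold changes between -0.05 and 0.07, none called. Fau, which encodes a ubiquitin-like protein fused to the small subunit protein S30, averaged 423 ± 9.19 CPM in untreated libraries and 417 ± 11.1 CPM in treated ones (SD, n = 3).

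**Figure D4:**
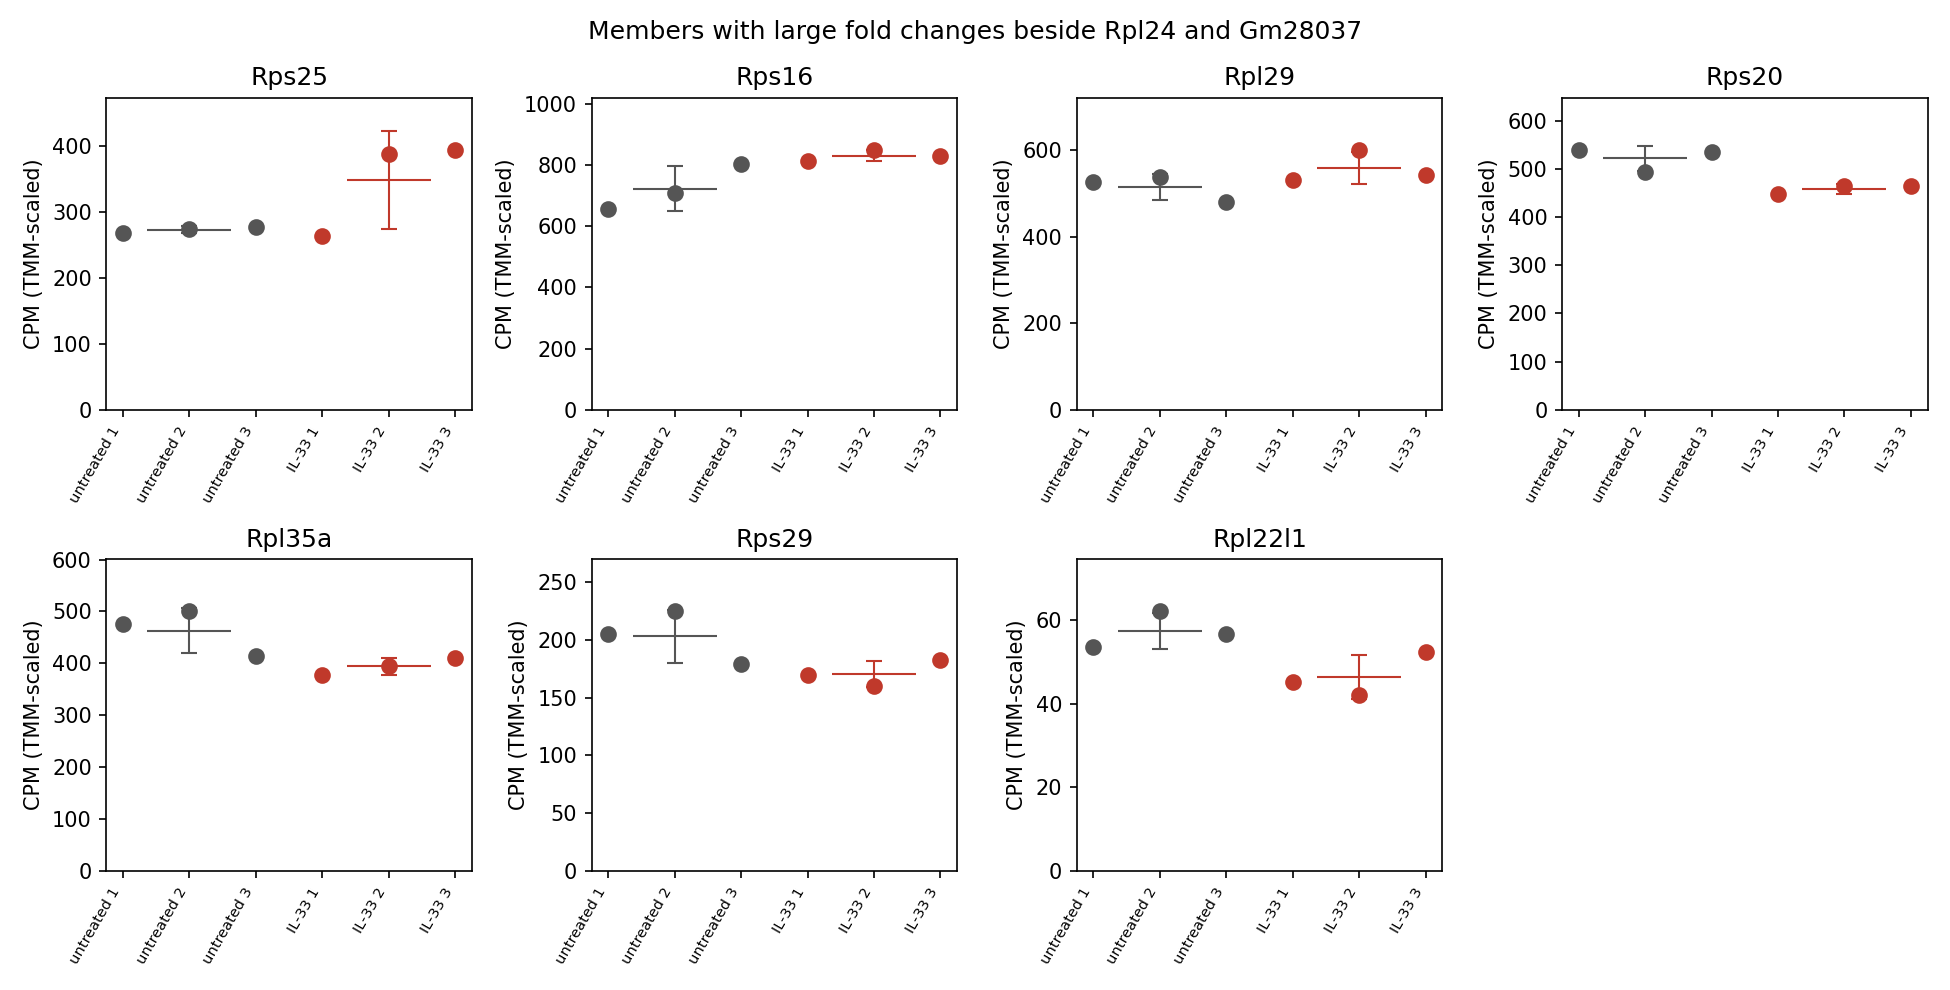
CPM by library (grey untreated, red IL-33) of 7 members with high or low log2 fold changes beside Rpl24 and Gm28037, with bars at the group mean and SD of 3 libraries; each axis starts at 0. Rps25 shows IL-33 replicate 1 at 263 CPM with the untreated libraries, and Rps20 is lower in all 3 IL-33 libraries.

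In the large subunit, Rpl35a had 475, 501 and 414 CPM untreated and 377, 395 and 410 CPM with IL-33. The groups did not overlap, though untreated replicate 3 and IL-33 replicate 3 were nearly equal, and the log2 fold change of -0.23 (SE 0.0679) had an adjusted p of 0.623 (edgeR). Rpl29 had 527, 538 and 481 CPM untreated and 533, 601 and 542 CPM with IL-33, which overlapped, with a log2 fold change of 0.12 (SE 0.0578, adjusted p = 0.763, edgeR). The stalk genes Rplp0, Rplp1 and Rplp2 had log2 fold changes of 0.01, -0.01 and -0.01, with 95% intervals inside -0.15 to 0.13. Rpl8, near the peptidyl transferase centre, had 1152 ± 22.9 CPM in untreated and 1192 ± 4.18 CPM in IL-33 libraries, and Rpl22 had 173 ± 25.9 and 176 ± 2.31 CPM (SD, n = 3).

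Core genes with an unadjusted p under 0.05 also included Rpl13a, Rpl38 and Rps28, described here after their values were seen. Rpl13a, also known from a complex that silences inflammatory messages, had 1342, 1371 and 1177 CPM in untreated libraries and 1137, 1167 and 1156 CPM with IL-33. Rpl38, known for its part in the translation of Hox messages, had 244, 255 and 235 CPM and then 212, 225 and 234 CPM. Rps28 had 156, 163 and 148 CPM and then 141, 146 and 145 CPM, with a log2 fold change of -0.12. In these genes every IL-33 library was below every untreated one, and no adjusted p was under 0.682 (edgeR).

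Of the 6 paralogs among the members, 3 were expressed. Rpl22l1, the paralog of Rpl22, had 53.6, 62.1 and 56.7 CPM untreated and 45.1, 42.0 and 52.3 CPM with IL-33. Every IL-33 library was lower, with a log2 fold change of -0.31 (SE 0.0927, adjusted p = 0.632, edgeR). Rpl7l1, a factor of large subunit assembly, averaged 271 ± 3.61 CPM in untreated libraries and 250 ± 6.92 CPM in treated ones (SD, n = 3, adjusted p = 0.717, edgeR). Rps27l, a p53 target, had 132 ± 15.5 and 136 ± 4.62 CPM. Rpl10l had no count in any library, Rpl3l had 4 counts in untreated replicate 2 alone, and Rpl39l had at most 16 counts in a library. Rps4l, which the annotation does not call protein-coding and which is no member, had 79.7 ± 6.15 CPM in untreated and 81.6 ± 6.13 CPM in IL-33 libraries.

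Transcript values were far less even than gene values for some members. A single transcript held over 90% of the counts in 46 of 78 core genes, with a median of 92.9%. Transcripts annotated as protein-coding held 95.6% ± 0.527 of member transcript counts untreated and 96.0% ± 0.450 with IL-33 (SD, n = 3), and retained introns held 2.30% ± 0.300 and 1.88% ± 0.239. The members described in the next paragraph were chosen after their values were seen.

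Rps10, a small subunit head protein, had the most divided counts: its leading transcript held 31.6% on average. The gene varied little, at 507, 544 and 488 CPM untreated and 523, 498 and 514 CPM with IL-33. The share of the coding transcript ENSMUST00000155071 was 66.4%, 21.3% and 9.72% in untreated libraries and 20.5%, 16.2% and 11.8% with IL-33. The share of another coding transcript, ENSMUST00000178774, was 4.58%, 3.98% and 47.6% untreated and 44.9%, 43.7% and 44.7% with IL-33. Untreated replicate 3 lay with the IL-33 libraries, and neither transcript was called in the comparison of all libraries. Without untreated replicate 3, ENSMUST00000178774 was the 1 member transcript called, but that fit leaves out the library seen to differ from its group. Rpl7 and Rpl22 showed the same unevenness: a retained intron of Rpl7 held 14.7%, 28.6% and 17.8% of its counts untreated and 16.4%, 0.0308% and 0.0572% with IL-33, and a coding transcript of Rpl22 ranged from 0.242% to 83.1% over the libraries.

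**Figure D5:**
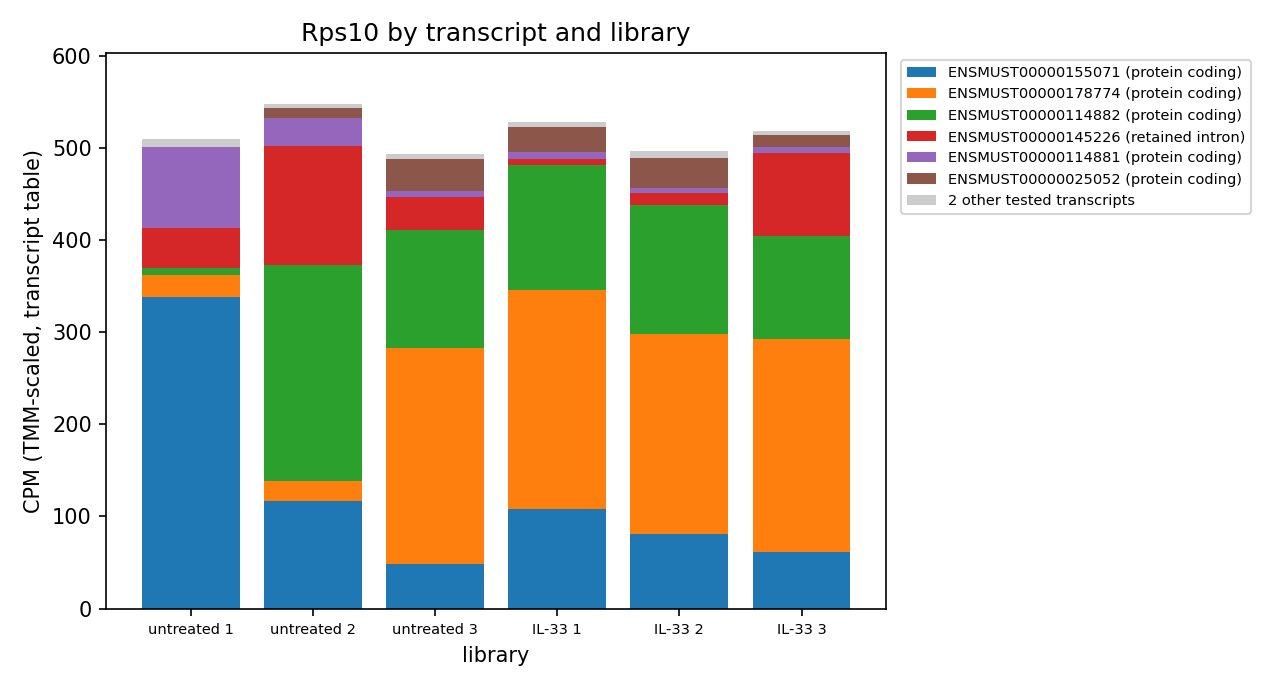
CPM of Rps10 transcripts in each library, stacked by transcript from the transcript table. The bars reach similar heights, from about the same 488 to 544 CPM that the gene table gives, while the parts differ: ENSMUST00000155071 fills most of untreated replicate 1 and ENSMUST00000178774 a large part of untreated replicate 3 and the 3 IL-33 libraries.

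Ribosomal protein genes have many near-identical copies, mostly processed pseudogenes. Transcripts of 595 other genes matched a member at 95% identity or more over at least 80% of the copy, and 81 of 85 members had such a copy. Copies held 4.07%, 4.14% and 3.67% of the counts of members and copies in untreated libraries and 3.89%, 3.52% and 3.76% with IL-33, which overlapped. They held over 5% of the counts for 20 members, so how reads were shared with copies bears on these levels. The share was highest for Gm28037, at 28.2%, which was matched by the same copies as Rpl24. It was 19.1% for Rpl10, 9.82% for Fau and 8.65% for Rps16. Of the 294 copies tested, 59 were above 0 and 235 below, with a median log2 fold change of -0.31. The 562 tested processed pseudogenes of other genes had a median of -0.21, with 400 below 0, and no copy or other pseudogene passed the threshold.

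Fold changes were also read by the sequence at the start. The 26 with a run had a median log2 fold change of -0.01, ranging from -0.17 to 0.07, and the 32 without one a median of -0.01, ranging from -0.40 to 0.35. Some windows counted as without a run, such as those of Rps25 and Rpl4, hold pyrimidine stretches further upstream. Core genes with no entry were left out, so these groups do not separate TOP messages from others.

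Other genes of the pathway were read from lists, and none of the 195 tested passed with edgeR, in either direction. At an unadjusted p under 0.05 there were 15 of them (7.69%), near the 6.74% of all genes. DESeq2 called 2 of them, Lsg1 and Mrpl48. Among 4 ribosome genes outside the rule, Rack1, a scaffold on the small subunit, had 1520 ± 111 CPM in untreated and 1532 ± 20.6 CPM in IL-33 libraries (SD, n = 3). Rpl36al had a log2 fold change of 0.04. Of 22 elongation factors and other TOP messages, 13 were above 0 and 9 below, with Eif4a2 at -0.14 and Eef1a1, which delivers aminoacyl-tRNA, at 0.08.

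Of 49 ribosome assembly genes tested, 20 were above 0 and 29 below. Lsg1, a GTPase of late large subunit maturation, had 80.4 ± 6.04 CPM without treatment and 63.4 ± 0.998 CPM with it (SD, n = 3), a log2 difference of -0.34 with an adjusted p of 0.304 by edgeR that did not pass. Nop56, a core protein of box C/D snoRNPs, differed by -0.18 on the log2 scale. Polr1b and Polr1a, the large subunits of RNA polymerase I, differed by -0.18 and -0.09, and 7 of the 12 polymerase I genes were below 0. Of 16 genes of mTOR and TOP control, 6 were above 0 and 10 below, with Mlst8 at 0.19 and Akt1s1 at 0.16. Of 7 genes of p53 and the 5S ribonucleoprotein, 5 were above 0, with Zmat3 at 0.15 and Trp53 at 0.06. Of 7 ribosomal protein chaperones, 2 were above 0, with Pdcd2 at -0.12 and Grwd1 at 0.08.

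The mitochondrial ribosome gave a second set of ribosomal proteins. Of its 78 tested genes, 28 were above 0 and 50 below, with a median log2 fold change of -0.03 and 5 at an unadjusted p under 0.05 (6.41%, against 6.74% of all genes). Mrpl48 had the lowest p, with 71.7 ± 1.38 CPM in untreated and 58.2 ± 1.81 CPM in IL-33 libraries (SD, n = 3), a log2 difference of -0.30 and an adjusted p of 0.304 by edgeR. Mrpl13 differed by -0.16 on the log2 scale.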

How the data were processed

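Estimated counts and FPKM were deposited for genes and for transcripts, per the file headers. Per the submitters' processing notes, the build was mm10 and the tools were StringTie 1.3.4d, HISAT2 2.1.0, FastQC 0.11.7 and DESeq2 1.18.1, and the notes do not tie a tool to a table. The sources used here do not name the annotation release. The deposited FPKM values are per kilobase of feature and scaled to depth by the authors. The deposited estimated counts are whole numbers that pile up at 4 (2209 transcripts at 4 in untreated replicate 1, against 1940 at 3 and 1854 at 5), so they are not raw reads, and counts divided by 4 were tried as an alternative. Symbols came from GENCODE M21 (52403 identifiers matched).

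The main test was edgeR 4.0.16 (R 4.3.3) with TMM scaling, filterByExpr at a minimum count of 10 and a robust quasi-likelihood fit of 3 against 3 libraries over all genes, with adjusted p-values over all of them. Fold changes compare IL-33 with untreated. Alternatives used DESeq2 1.42.0, limma 3.58.1, other scalings and filters, the replicate block and each library left out. The procedure was tested on simulated counts, where false calls exceeded the nominal share. Copies were found with BLAST 2.17.0. Members and lists were chosen with earlier results of these data known. Named members are those called, the 5 highest and 5 lowest by fold change and by gene FPKM, the stalk genes, Rpsa, Fau, Rack1, the paralogs and Gm28037, and of each other list the 2 with the smallest p. Some genes that this rule takes in are not reported here.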

Additional observations from a re-analysis of the deposited data

How the results depend on the processing

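The count of members called, 1 with the main test, was 2 with DESeq2, 0 with limma on log2(FPKM + 1), on log2(FPKM + 0.1) and on log2(FPKM + 1) with no filter, and between 0 and 2 with a library left out. The replicate block gave 0, with an adjusted p of 0.0733 for Rpl24. Same-numbered libraries correlated at 0.0598, 0.0855 and -0.0284 in their deviations from the group means over 9315 genes. Differently numbered libraries ran from -0.108 to 0.0591, so the highest values, 0.0855 and 0.0598, were of same-numbered libraries. All were small, and the numbers were not taken to pair libraries. Other pathway genes called were 0 with the main test and 2 with DESeq2. Member transcripts called ranged from 0 to 1 with a library left out, and were 0 with a minimum count of 50 and with the replicate block. The summed Rpl24 and Gm28037 rows stayed between -0.18 and -0.12 on the log2 scale over 15 alternatives, and none passed. The members' median log2 fold change stayed between -0.03 and 0.01. The difference in the members' share of the library, in percentage points, ran from -0.0855 to 0.0754, so its sign was not fixed.

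Reads shared between Rpl24 and Gm28037, and between members and their copies, limit every value above, since the sources used here do not say how the authors assigned them. With 3 libraries a group, small differences can have gone undetected, and the printed intervals do not mark the limit of detection. The summed Rpl24 and Gm28037 rows had an interval of -0.24 to -0.05 on the log2 scale. They were still not called, with an adjusted p of 0.625 (edgeR quasi-likelihood test).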
